A study of Mus musculus with 59 samples.

Results

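Fos-high and Fos-low libraries are the 2 ends of the 35 ventral tegmental area libraries of acute, chronic or conditioning mice: the 12 with the highest and the 12 with the lowest Fos FPKM, 24 of 59 libraries in all. FPKM is the fragment count scaled to transcript length and library size, and the ends were chosen by the Fos value alone. The ventral tegmental area is the midbrain region that holds dopamine neurons, and RNA came from male mice given cocaine or saline. Acute and chronic mice were injected in the home cage with cocaine (5 acute, 6 chronic libraries) or saline (6 and 6). Conditioning mice were conditioned with cocaine (6 libraries) or with saline (6). The labels used here give no dose, time of tissue collection, age or kind of conditioning. The 24 self-administration libraries (15 cocaine, 9 saline) took no part in the choice. Nothing in the labels ties a sample to an animal of its own, so the p-values below cover the spread among these libraries and may include purely technical spread.

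Fos encodes a subunit of AP-1, a pair of leucine zipper proteins that binds DNA, and it is the classical immediate early gene of neurons. Synaptic activity opens calcium channels and drives MAP kinases, which switch on such genes through the factors CREB and SRF within minutes and without new protein synthesis. Fosb, Egr1, Junb, Arc and the Nr4a receptors are other members of this program. Fosb is also the source of the stable splice product deltaFosB, known to build up in the striatum under repeated cocaine. Symbol-level values do not tell the splice forms apart.

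Before the values, the promoters of genes that followed Fos are shown, since the same letters can then be set beside each gene's behaviour. The sequences are RefSeq entries on GRCm38.p6, from 250 bases before to 50 bases after the transcription start. Fosb, Nr4a1, Nr4a3 and Fosl2 were higher at the high end and also followed Fos within groups, and Ddit4 was higher at the high end only. Egr1 and Sik1 also did both but had no entry among the promoters, so they are not covered here. Capitals mark TGACG or its reverse complement, the short form of the cyclic AMP response element (CRE) that CREB is known to bind.
Fosb, chr7:19309996-19310295, minus strand: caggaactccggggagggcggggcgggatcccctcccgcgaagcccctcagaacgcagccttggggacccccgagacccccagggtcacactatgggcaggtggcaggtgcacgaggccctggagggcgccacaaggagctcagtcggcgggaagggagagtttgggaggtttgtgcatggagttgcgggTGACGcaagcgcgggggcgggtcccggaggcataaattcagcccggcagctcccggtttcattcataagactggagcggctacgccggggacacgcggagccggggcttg
Nr4a1, chr15:101266596-101266895, plus strand: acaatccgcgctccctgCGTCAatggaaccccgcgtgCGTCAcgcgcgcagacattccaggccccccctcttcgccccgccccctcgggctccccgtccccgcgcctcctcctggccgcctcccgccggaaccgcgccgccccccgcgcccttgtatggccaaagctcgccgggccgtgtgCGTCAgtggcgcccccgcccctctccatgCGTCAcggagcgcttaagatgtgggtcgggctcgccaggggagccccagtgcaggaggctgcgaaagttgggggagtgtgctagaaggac
Nr4a3, chr4:48045055-48045354, plus strand: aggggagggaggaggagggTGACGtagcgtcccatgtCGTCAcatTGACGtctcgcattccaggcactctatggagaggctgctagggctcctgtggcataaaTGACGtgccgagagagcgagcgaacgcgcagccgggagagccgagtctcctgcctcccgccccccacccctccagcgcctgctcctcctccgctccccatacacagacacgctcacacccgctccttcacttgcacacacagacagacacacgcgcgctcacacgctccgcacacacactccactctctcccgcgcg
Fosl2, chr5:32136222-32136521, plus strand: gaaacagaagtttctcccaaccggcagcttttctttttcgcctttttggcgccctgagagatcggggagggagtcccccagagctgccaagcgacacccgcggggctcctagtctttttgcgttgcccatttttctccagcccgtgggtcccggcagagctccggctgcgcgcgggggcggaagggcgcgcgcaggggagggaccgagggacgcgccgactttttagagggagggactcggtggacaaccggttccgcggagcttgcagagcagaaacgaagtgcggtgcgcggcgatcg
Ddit4, chr10:59951721-59952020, minus strand: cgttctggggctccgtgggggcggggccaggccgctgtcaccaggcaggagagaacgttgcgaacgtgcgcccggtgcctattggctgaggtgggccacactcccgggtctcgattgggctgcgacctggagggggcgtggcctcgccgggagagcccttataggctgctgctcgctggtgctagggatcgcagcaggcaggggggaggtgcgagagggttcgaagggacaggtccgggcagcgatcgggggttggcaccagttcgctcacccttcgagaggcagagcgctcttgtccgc

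Nr4a1 and Nr4a3 each held 4 copies of TGACG in this window, Fosb held 1, and Fosl2 and Ddit4 held 0. TGACG, read on both strands, was present in 20.8% of the 32851 mouse promoters of this length in the table. The full palindrome TGACGTCA, which contains TGACG on both strands, was in none of the 5 and in 1.79% of all. A match to GCGNGGGCG, a form of the EGR site, was found once each in Fosb, Fosl2 and Nr4a1 and in 5.55% of all promoters. The AP-1 site TGANTCA (7.81% of all), AAAGGTCA, the site of NR4A monomers (1.51%), and the CArG box of SRF (1.63%) had no match in the 5 windows. These matches describe letters and say nothing about binding, and the lack of one says only that these letters are not in this window. Of the 29 genes that passed between the ends and not within groups, 26 had 44 promoters in the table, of which 17 (38.6%) held TGACG. The full TGACGTCA was in 4 (9.09%), of Btg2, Dusp1, Errfi1 and Maff.

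The first question was how cocaine and saline libraries, and the paradigms, spread over the ends. Fos ran from 19.9 to 26.4 FPKM at the high end (median 21.1) and from 5.01 to 14.1 at the low end (median 9.70), with 11 libraries between at 15.8 to 19.5. These levels made the choice and are no result. Cocaine libraries made up 7 of the 12 at the high end and 3 of the 12 at the low end, and saline libraries 5 and 9. The 11 between held 7 cocaine and 4 saline libraries.

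The paradigms parted more than the treatments. Conditioning gave 9 of the 12 high libraries (5 saline, 4 cocaine), none of the low ones and 3 of those between. All 12 low libraries were of home cage mice: 4 acute saline, 1 acute cocaine, 5 chronic saline and 2 chronic cocaine. The 3 home cage libraries at the high end were all cocaine (1 acute, 2 chronic), and no home cage saline library reached it. Within the home cage paradigms, then, 9 of 12 saline libraries and 3 of 11 cocaine libraries were low, whereas conditioning put saline and cocaine mice alike at the high end. No test was run on these counts, because Fos made the ends. The difference between ends and the difference between conditioning and the home cage cannot be told apart for most genes in this design.

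The edges of the choice were narrow on the high side. The lowest high library, Acute cocaine 1, had 19.90 FPKM of Fos, and the next one below it, Acute cocaine 0, had 19.53. On the low side Chronic cocaine 0 was the last inside with 14.13 FPKM, and Acute saline 3 the first outside with 15.79. Libraries are named by their group and their number in the deposited table. Sums of FPKM were 432872 to 456052 at the high end and 418179 to 447459 at the low end, and 5864 to 7401 and 5891 to 7075 gene symbols were listed at 0. Read depth is unknown. The dopamine neuron genes Th and Slc6a3 were present at 136 FPKM or more in each of the 24 libraries.

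**Figure D1:**
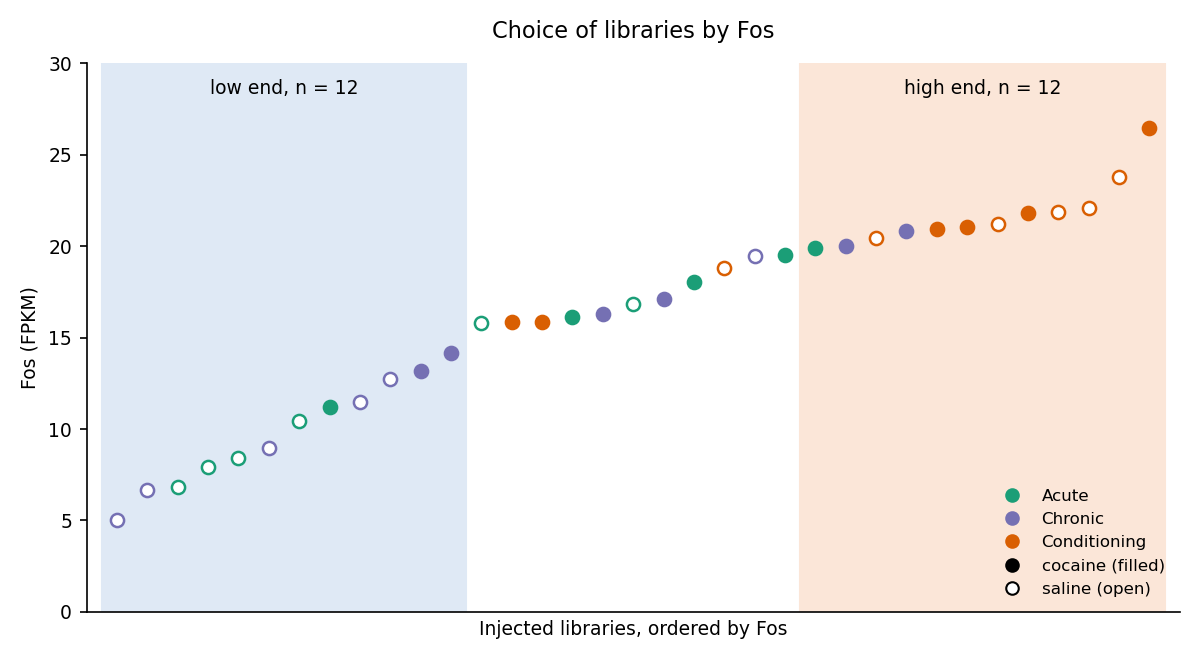
Fos level in FPKM (vertical axis) of the 35 injected libraries in rising order. Colours give the paradigm, filled points are cocaine and open points saline, and shading marks the 12 low and 12 high libraries; the low end holds no conditioning library and the high end no home cage saline library.

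Which genes follow Fos from end to end was then described over all genes by limma, a linear model with shared variance, on log2(FPKM + 1). Of 13176 genes whose mean was 1 FPKM or more, 35 (0.266%) were higher at the high end at an adjusted p under 0.05 and 0 (0%) were lower. At an unadjusted p under 0.05 there were 714 higher and 481 lower genes. Over all genes 48.0% of differences were positive and the median was -0.003. These p-values sort genes and support nothing, since Fos chose the ends. The 35 fell into 12 genes of the activity-induced lists, 7 of the glucocorticoid list (Cdkn1a is in both) and 17 in neither. Fold differences on this scale understate those of genes near 1 FPKM.

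Of the AP-1 genes, Fosl2, which encodes the Fos relative FRA2, was the only gene of all 13176 (0.00759%) whose values at the high end all lay above those at the low end, and no gene (0%) lay wholly below. Its levels were 2.06, 3.15 and 3.86 FPKM (lowest, median, highest) at the high end and 0.873, 1.54 and 2.05 at the low end. The ends touched without overlapping, with Chronic cocaine 4 the lowest high library and Chronic cocaine 0 the highest low one. The log2 difference was 0.76 with an SE of 0.09 (limma adjusted p = 2.94e-05), and values after ± are SEs from here on unless SD is written. Among the 6 injected groups, conditioning had the highest means, 3.29 ± 0.50 (SD, n = 6) after saline and 2.92 ± 0.60 (n = 6) after cocaine, against 1.56 ± 0.45 (n = 6) in acute saline and 1.43 ± 0.54 (n = 6) in chronic saline.

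Fosb, the closest relative of Fos, lay at 1.65, 2.25 and 2.86 FPKM at the high end and 0.487, 1.13 and 1.82 at the low end. Only Chronic saline 1 among the low libraries reached into the high range. The difference was 0.68 ± 0.09 (limma adjusted p = 0.000226). The 3 home cage libraries at the high end, at 1.93 to 2.63 FPKM, were all above the highest low library. With conditioning left out, these 3 libraries, all cocaine, stood against the 12 low ones, of which 9 were saline. The difference was then 0.69 and did not pass (adjusted p = 0.671). Maff, a small MAF protein that pairs with AP-1 subunits, was higher by 0.41 ± 0.09 (adjusted p = 0.0472), and its fit turned to -0.072 with the 6 group means as terms. Junb differed by 0.50 ± 0.16 and did not pass (adjusted p = 0.257), with levels of 6.07, 13.3 and 18.0 FPKM at the high end and 5.78, 8.96 and 16.9 at the low end. Jun, with a difference of 0.11 ± 0.06, and Jund, with -0.11 ± 0.20, did not pass either. Of the 9 AP-1 genes listed 6 were tested, 5 had positive differences and 3 passed.

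Among the activity-induced transcription factors the orphan nuclear receptors Nr4a1 and Nr4a3 came first. Nr4a1 had 6.19, 7.54 and 10.5 FPKM at the high end and 3.81, 4.63 and 7.16 at the low end, a difference of 0.65 ± 0.08 (limma adjusted p = 0.000103). Chronic cocaine 0 alone among the low libraries reached the high range. The 3 home cage cocaine libraries stood at 8.84 to 10.5 FPKM, whereas the 9 conditioning libraries of the high end had a median of 7.38. Nr4a1 was the one gene still called when conditioning was left out (0.86, adjusted p = 0.0138). That fit set the 3 home cage cocaine libraries against 12 low ones, of which 9 were saline, so end and treatment are mixed in it.

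Nr4a3 had 2.10, 2.44 and 3.09 FPKM at the high end against 0.749, 1.41 and 2.44 at the low end, with Chronic saline 1 as the one low library in the high range. Its difference was 0.56 ± 0.08 (adjusted p = 0.000808). Egr1, a zinc finger factor widely read as a marker of activity, had 17.3, 23.1 and 27.5 FPKM against 7.15, 14.0 and 20.9. The ends overlapped, and the 2 lowest libraries, Chronic saline 3 and Chronic saline 4, were also the lowest of all 35 in Fos. The difference was 0.69 ± 0.14 (adjusted p = 0.0305). Nfil3, a bZIP repressor also tied to the clock (0.41 ± 0.08, adjusted p = 0.0272), and the antiproliferative gene Btg2 (0.26 ± 0.05, adjusted p = 0.0305) passed too. Of 22 tested genes of this list, 17 were positive and 5 passed. Nr4a2, a relative of Nr4a1 that dopamine neurons express throughout, had medians of 31.9 FPKM at the high end and 32.3 at the low end.

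Other standard activity genes gave small differences that did not pass. Arc, whose protein acts at synapses, had medians of 8.54 and 7.62 FPKM at the high and low end (0.17 ± 0.07, adjusted p = 0.395). Ier2 had medians of 4.87 and 3.81 (0.21 ± 0.07, adjusted p = 0.258). Npas4, which neurons make only after activity, was below the limit of 1 FPKM, with 0.322 to 0.677 at the high end and 0.318 to 0.514 at the low end. The neuronal growth factor Bdnf differed by 0.16 ± 0.11 and Homer1 by 0.06 ± 0.06. Of the 26 tested effectors at synapses and in signalling 24 were positive and 3 passed. These were the kinase Sik1 (0.32 ± 0.06, adjusted p = 0.00909), the ribosylating enzyme Tiparp (0.25 ± 0.05, adjusted p = 0.0164) and the cell cycle inhibitor Cdkn1a.

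Of the genes that damp MAP kinase signalling, 5 of 10 were positive and 1 passed. Dusp1, a phosphatase of MAP kinases, had 10.1, 11.6 and 13.6 FPKM at the high end and 8.18, 9.07 and 12.9 at the low end. Its difference was 0.29 ± 0.05 (limma adjusted p = 0.0132), and the ends overlapped. Spry2, with -0.12 ± 0.04, pointed the other way and did not pass. Upstream, the kinases, coactivators and factors of the CREB and SRF pathway showed 7 positive differences of 18 and none that passed. Its median was -0.02, and Creb1 differed by 0.04 ± 0.05. In all, 51 of 64 genes of the 4 activity lists together were positive, with a median of 0.10, and 12 passed against the 0.266% of all genes. The lists were drawn up with earlier results of these data known, so the counts are a description.

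Genes known to be induced by glucocorticoids, the hormones of stress and of the daily rhythm, formed the other group at the high end. Of 19 tested, 18 were positive, with a median of 0.23, and 7 passed: Ddit4, Cdkn1a, Pdk4, Mt1, Nfkbia, Errfi1 and Sgk1. Of all genes 48.0% were positive and 0.266% passed as higher. This list too was drawn up with earlier results of these data known, so its counts are a description. Ddit4, an inhibitor of mTOR signalling, had 48.8, 58.9 and 68.4 FPKM at the high end and 35.9, 42.3 and 52.1 at the low end (0.44 ± 0.06, limma adjusted p = 0.000808). Its 9 conditioning libraries at the high end spanned 52.1 to 68.4 and its 3 home cage libraries 48.8 to 53.3. The ends overlapped in 3 high libraries, Chronic cocaine 2, Chronic cocaine 4 and Conditioning cocaine 2.

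Cdkn1a had 7.30, 12.4 and 19.6 FPKM at the high end and 4.66, 6.76 and 8.89 at the low end. Its difference of 0.81 ± 0.13 (limma adjusted p = 0.00248) was the largest of the 35 on log2(FPKM + 1). The ratio of mean FPKM, high over low, was 1.91 for Cdkn1a, 2.17 for Fosl2 and 2.13 for Fosb. Conditioning libraries of the high end stood at 10.8 to 19.6, and the home cage ones at 7.30 to 10.1, of which 1 was above the low range. Pdk4, which turns down the use of glucose by mitochondria, had medians of 5.72 and 4.17 FPKM (0.38 ± 0.06, adjusted p = 0.00248), and none of its 3 home cage libraries was above the low range. Sgk1, a kinase and classical steroid target, had medians of 151 and 99.4 FPKM (0.56 ± 0.12, adjusted p = 0.0364), likewise with none. Fkbp5 and Zbtb16, further steroid targets, differed by 0.00 ± 0.06 and -0.01 ± 0.17.

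Across the 35 genes, the 3 home cage libraries of the high end were all above the highest low library for 8. These were Fosl2, Fosb, Nr4a1, Sik1, Tiparp and Btg2, and also Rasl11a and Snx22, which are in no activity or steroid list. For 8 others none of the 3 libraries was above it: Pdk4, Sgk1, Dusp1, Nfil3, Maff, Gucd1, Kank1 and Klhdc7a. In 19 genes 1 or 2 of the 3 were. The 17 genes in no activity or steroid list had differences of 0.12 to 0.37. An example is Rasl11a, a small GTPase of the Ras family (0.37 ± 0.07, adjusted p = 0.0164). The protease Prss23 (0.27 ± 0.05, adjusted p = 0.0235) and the protease inhibitor Timp4 (0.21 ± 0.04, adjusted p = 0.0305) were also among them. Plat, the tissue plasminogen activator, F3, the tissue factor of clotting, and the copper chaperone Atox1 passed as well. With 1 library left out, Maff passed in 6 of 24 fits, Sgk1, Plat and F3 in 9, Nfkbia in 10 and Errfi1 in 11. Btg2 passed in 16 of the 24, and Egr1, Nfil3 and Mt1 in 17. Fosl2, Fosb, Nr4a1, Nr4a3, Sik1, Ddit4, Cdkn1a, Pdk4, Dusp1, Tiparp and Rasl11a passed in all 24.

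**Figure D2:**
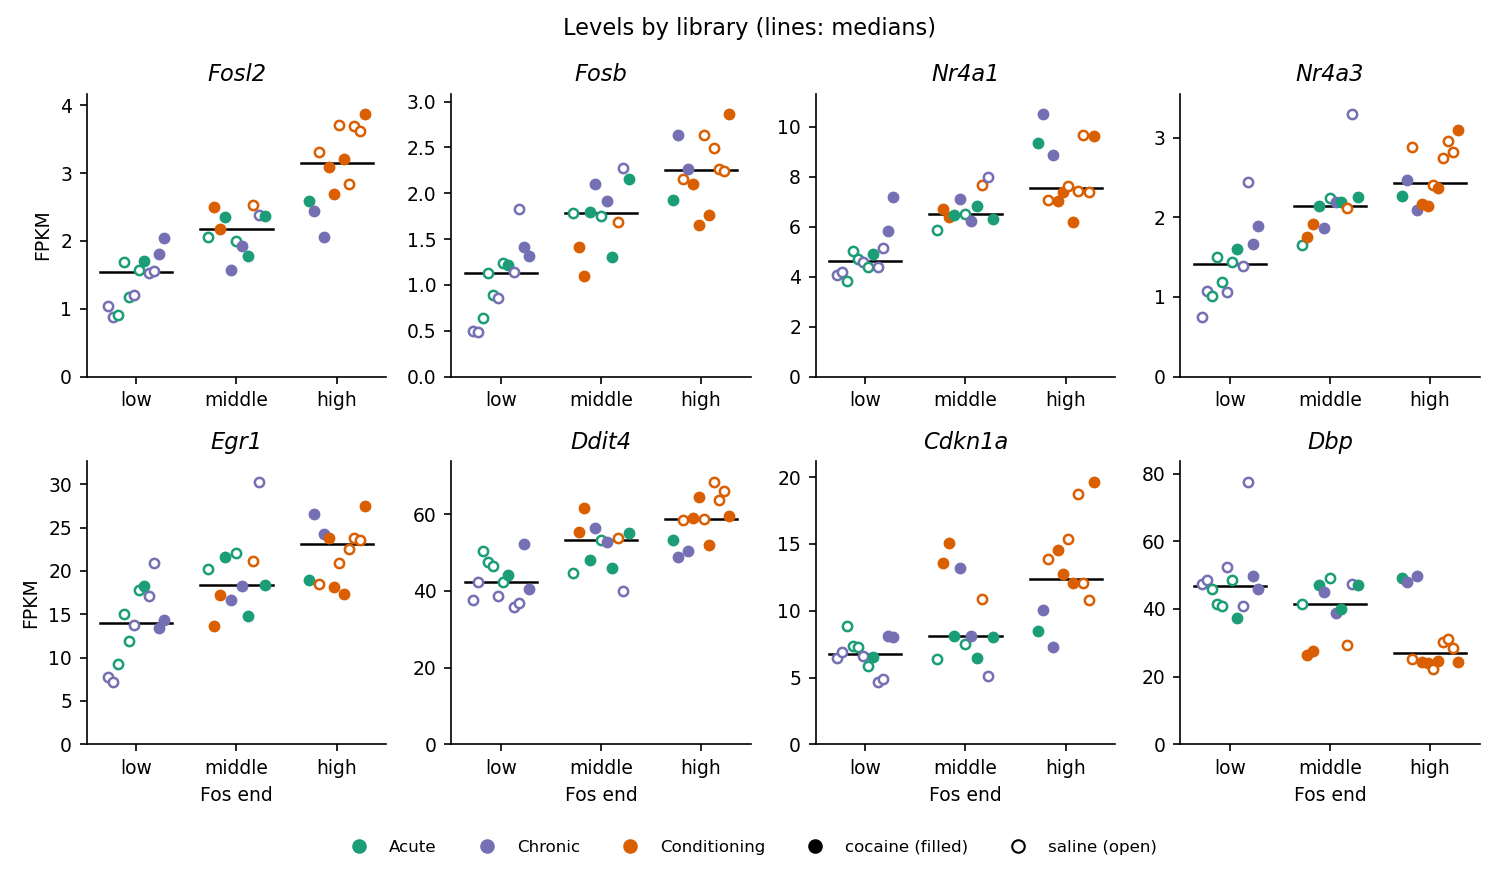
FPKM of 8 genes (vertical axes from 0) at the low end (n = 12), in between (n = 11) and at the high end (n = 12), each library as a point ordered by Fos, with the paradigm by colour and cocaine filled. Lines are medians. Nr4a1 in the 3 home cage libraries of the high end is at 8.84 to 10.5 FPKM. Dbp parts conditioning from home cage libraries at the high end and in between, and the low end holds no conditioning library.

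No gene passed in the lower direction in this fit. Among genes lower by at least 1.2-fold, a clock gene, Dbp, had the smallest p. With 0.1 in place of 1 added to FPKM, 1 gene passed as lower, and it was not Dbp (limma adjusted p = 0.0502). Dbp, a transcription factor of the clock's output, had 22.2, 26.9 and 49.8 FPKM at the high end and 37.3, 46.7 and 77.4 at the low end (-0.62 ± 0.14, limma adjusted p = 0.0534). Its values went with the paradigm: all 12 conditioning libraries lay at 22.2 to 31.1 FPKM and all 23 home cage libraries at 37.3 to 77.4. The 3 home cage libraries of the high end had 48.1 to 49.8 FPKM, inside the range of the low end. With conditioning left out, the difference of Dbp was 0.050, and with paradigm and treatment as terms it was 0.15. Ciart, a repressor in the clock, had -0.28 ± 0.10 between the ends and 0.14 without conditioning.

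Of 19 clock genes tested 6 were positive. Arntl, the partner of CLOCK, which peaks opposite to Dbp, was at medians of 5.92 and 4.78 FPKM (0.23 ± 0.05, adjusted p = 0.0744), and Per3 at 5.26 and 6.62 (-0.24 ± 0.06, adjusted p = 0.158). Clock phase, or the hour of collection, was not in the labels, and its part in the differences between the ends was not tested. Among genes lower by at least 1.2-fold outside the clock list, those with the smallest p were Sfrp5, a secreted inhibitor of WNT signals (-0.31 ± 0.08, adjusted p = 0.144), Hes5, a target of Notch (-0.49 ± 0.16, adjusted p = 0.259), Gkn3 (-0.44 ± 0.15) and Id3 (-0.28 ± 0.11). Rbm3, the cold-shock RNA-binding protein, had -0.34 ± 0.14, and Oprk1, the kappa opioid receptor, -0.27 ± 0.12, and neither passed. Dynlrb2, Bend5, Mrln and 1700063D05Rik were also among these, at -0.44, -0.26, -0.41 and -0.46.

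Markers of cell types were read beside these results, because in bulk tissue fewer cells of a type and less RNA per cell cannot be told apart. All 12 dopamine neuron markers had negative differences, with a median of -0.26, and none passed. Their summed level spanned 810 to 2597 FPKM at the high end (median 1410) and 882 to 2770 at the low end (median 1738), so the ends overlapped widely. Th had 146, 308 and 538 FPKM at the high end and 194, 367 and 620 at the low end (-0.29 ± 0.24). Slc6a3, the dopamine transporter that cocaine blocks, had 136, 282 and 597 against 142, 362 and 570 (-0.27 ± 0.27). The 5 oligodendrocyte markers were all positive with a median of 0.18 and none passed; Cnp, a myelin enzyme, had 0.19 ± 0.05 (adjusted p = 0.174). All 25 ribosomal protein genes and all 25 genes of oxidative phosphorylation were positive, with medians of 0.07 and 0.06 and none that passed, Rpl37 being nearest (0.20 ± 0.04, adjusted p = 0.0501). Heat shock genes were positive in 14 of 15 with a median of 0.08, and microglia markers in 5 of 6 with a median of 0.04. What part such makeup had in the 35 genes was not tested.

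The next comparison removed the groups: in all 35 injected libraries each gene was set against log2 Fos (FPKM + 1) with a mean for each of the 6 groups, so that a slope reads how libraries of one paradigm and treatment follow Fos. A slope of 1 means that a gene changes as much as Fos on the log2 scale. Of 13172 genes, 14 (0.106%) had a slope above 0 at an adjusted p under 0.05 and 1 (0.00759%) one below 0. The fit uses the Fos values that chose the ends and the libraries in them, so it too is a description. On log2(FPKM + 1), Egr1 had the steepest slope of the 15, 0.96 ± 0.10 (limma adjusted p = 5.9e-07). This order depends on the scale: with 0.1 in place of 1 added to FPKM, Fosb had 1.09 and Egr1 0.94. Junb had a slope of 0.79 ± 0.14 (adjusted p = 0.0078) although it had not passed between the ends.

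Fosb had a slope of 0.70 ± 0.06 (limma adjusted p = 4.52e-08), Nr4a3 0.60 ± 0.06 (adjusted p = 1.53e-07), Nr4a1 0.49 ± 0.08 (adjusted p = 0.000599), Fosl2 0.47 ± 0.06 (adjusted p = 4.06e-05) and Sik1 0.30 ± 0.05 (adjusted p = 0.00572). Egr4, a relative of Egr1, had 0.89 ± 0.18 (adjusted p = 0.0255). With Egr4, 8 of the 15 were of the activity lists. The other 7 were the small GTPase Rem2 (0.41), the somatostatin receptor Sstr4 (0.50), the adenylyl cyclase Adcy7 (0.35), the potassium channel Kcnj9 (0.30), the oxytocin receptor Oxtr (0.52), the synaptic protein Lrrtm1 (0.35) and, below 0, Fam199x (-0.20). None of these 7 had passed between the ends. Leaving out 1 library often ended the weaker calls: of 35 such fits, Lrrtm1 passed in 10, Oxtr in 14, Kcnj9 in 23, Adcy7 in 25 and Fam199x in 28, while Rem2 and Sstr4 passed in 33.

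No gene of the glucocorticoid list passed within groups. Slopes were 0.05 ± 0.06 for Ddit4, -0.10 ± 0.11 for Cdkn1a, 0.02 ± 0.08 for Pdk4, -0.10 ± 0.11 for Sgk1 and -0.02 ± 0.06 for Nfkbia. The list had 10 positive slopes of 19 and a median of 0.002. The activity lists together had 49 positive slopes of 64, with a median of 0.09 and 8 that passed. Of the 35 genes called between the ends 29 had a positive slope and 6 passed in both fits: Fosl2, Fosb, Nr4a1, Nr4a3, Egr1 and Sik1. Dbp had 0.07 ± 0.08 and Ciart 0.00 ± 0.07.

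Dopamine markers had negative slopes within groups, with 0 of 12 above 0, a median of -0.66 and 8 at an unadjusted p under 0.05, where 7.26% of all genes had such a p below 0. Th had -0.79 ± 0.31 (limma adjusted p = 0.222) and none passed. Of 18 neuropeptide and opioid genes 12 had positive slopes, with a median of 0.14, and none passed. In that list Adcyap1, Tac1 and Penk, made by neighbouring and local neurons, had slopes of 0.73 ± 0.17 (adjusted p = 0.0631), 0.73 ± 0.24 and 0.36 ± 0.13, and Oprk1 -0.54 ± 0.16. What part the makeup of neurons had in the slopes of the early genes was not tested. The same list of dopamine markers had 3 positive slopes of 11 in self-administration, with a median of -0.31.

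Genes most like Fos in rank over the 35 libraries were named by Spearman's rho, as a description over libraries that share groups. Fosl2 was first at 0.92, followed by Nr4a3 at 0.86, Fosb at 0.85, Nr4a1 at 0.84, Sik1 at 0.78, Egr1 at 0.75, Tiparp at 0.75, Ddit4 at 0.73, Timp4 at 0.72 and Nfil3 at 0.72. With group means removed, rho was 0.86 for Fosb, 0.84 for Nr4a3, 0.81 for Egr1, 0.80 for Fosl2, 0.72 for Nr4a1, 0.67 for Sik1 and 0.56 for Nfil3. It was 0.36 for Tiparp, 0.30 for Timp4 and 0.13 for Ddit4.

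A difference between cocaine and saline libraries in how genes follow Fos was tested by itself as the difference of slopes over the 35 libraries. No gene of 13172 passed in limma (0%), and 323 had an unadjusted p under 0.05, 176 with the steeper slope after cocaine and 147 after saline. Fosb had slopes of 0.80 in the cocaine libraries alone and 0.67 in the saline ones, Nr4a1 0.71 and 0.42, Fosl2 0.49 and 0.46, and Egr1 0.75 and 1.02. In the cocaine libraries alone none of these genes passed (limma adjusted p = 0.176 for Fosb and 0.9999 for the others). Each passed in the saline libraries alone, with a limma adjusted p from 4.57e-05 (Egr1) to 0.0141 (Nr4a1).

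The self-administration libraries gave the one test that the choice did not touch. Fos there spanned 11.0 to 26.4 FPKM over 15 cocaine libraries and 7.96 to 20.8 over 9 saline libraries. Slopes were fitted on log2 Fos with treatment as a term over 13129 genes. Fosb alone passed (0.00762% higher, 0% lower), with a slope of 0.76 ± 0.09 (limma adjusted p = 6.21e-05). Its level was 1.35, 2.25 and 3.18 FPKM (lowest, median, highest) after cocaine and 0.571, 1.74 and 2.81 after saline. The library lowest in Fos, Self-administration saline 4, was also lowest in Fosb at 0.571, and the one highest in Fos, Self-administration cocaine 12, was highest at 3.18. The slope stayed called with each of the 24 libraries left out in turn, at 0.69 to 0.79. It was 0.65 in the cocaine libraries alone (adjusted p = 0.539) and 0.88 in the saline libraries alone (adjusted p = 0.169), neither of which passed.

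Of the 35 genes higher at the high end, all were tested in self-administration and 27 had a positive slope, where 49.2% of all genes did. At an unadjusted p under 0.05 there were 7 positive and 0 negative, against 1.24% and 2.7% of all genes (163 and 354). The 7 were Fosb, Nr4a1 (0.62 ± 0.16, p = 0.000637), Nfil3 (0.32 ± 0.09, p = 0.00201), Fosl2 (0.49 ± 0.14, p = 0.00212), Sik1 (0.39 ± 0.11, p = 0.00245), Egr1 (0.63 ± 0.20, p = 0.00445) and Nr4a3 (0.51 ± 0.17, p = 0.00743). All 7 are of the activity lists, and except Fosb none passed after adjustment in limma over all genes (adjusted p from 0.740 to 0.964). Sik1 did pass when Self-administration saline 4 was left out (0.60, adjusted p = 0.0245).

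Nr4a1 spanned 5.00 to 15.9 FPKM in the cocaine libraries and 5.09 to 9.52 in the saline ones, and the 3 libraries highest in Fos were the 3 highest in Nr4a1. Junb was at 2.14 ± 0.88 FPKM (SD, n = 9) after saline and 3.10 ± 1.2 (SD, n = 15) after cocaine, below the means of every injected group, 10.3 to 13.8. Its slope was 0.68 ± 0.23 (limma p = 0.00749, adjusted p = 0.964). Of the 15 genes called within groups, 14 were tested there, 12 were positive and 9 had an unadjusted p under 0.05 on the positive side. The steroid-induced genes had 17 positive slopes of 19 with a median of 0.17, and 2 with an unadjusted p under 0.05 on the positive side. Of all genes there, 49.2% had a positive slope and 1.24% such a p on the positive side. Ddit4 had 0.03 ± 0.19 and Cdkn1a 0.96 ± 0.47 (p = 0.0551), with Cdkn1a levels of 9.31 to 113 FPKM against 4.66 to 19.6 in the injected libraries. Whether slopes differ between self-administration and the injected paradigms was not tested.

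**Figure D3:**
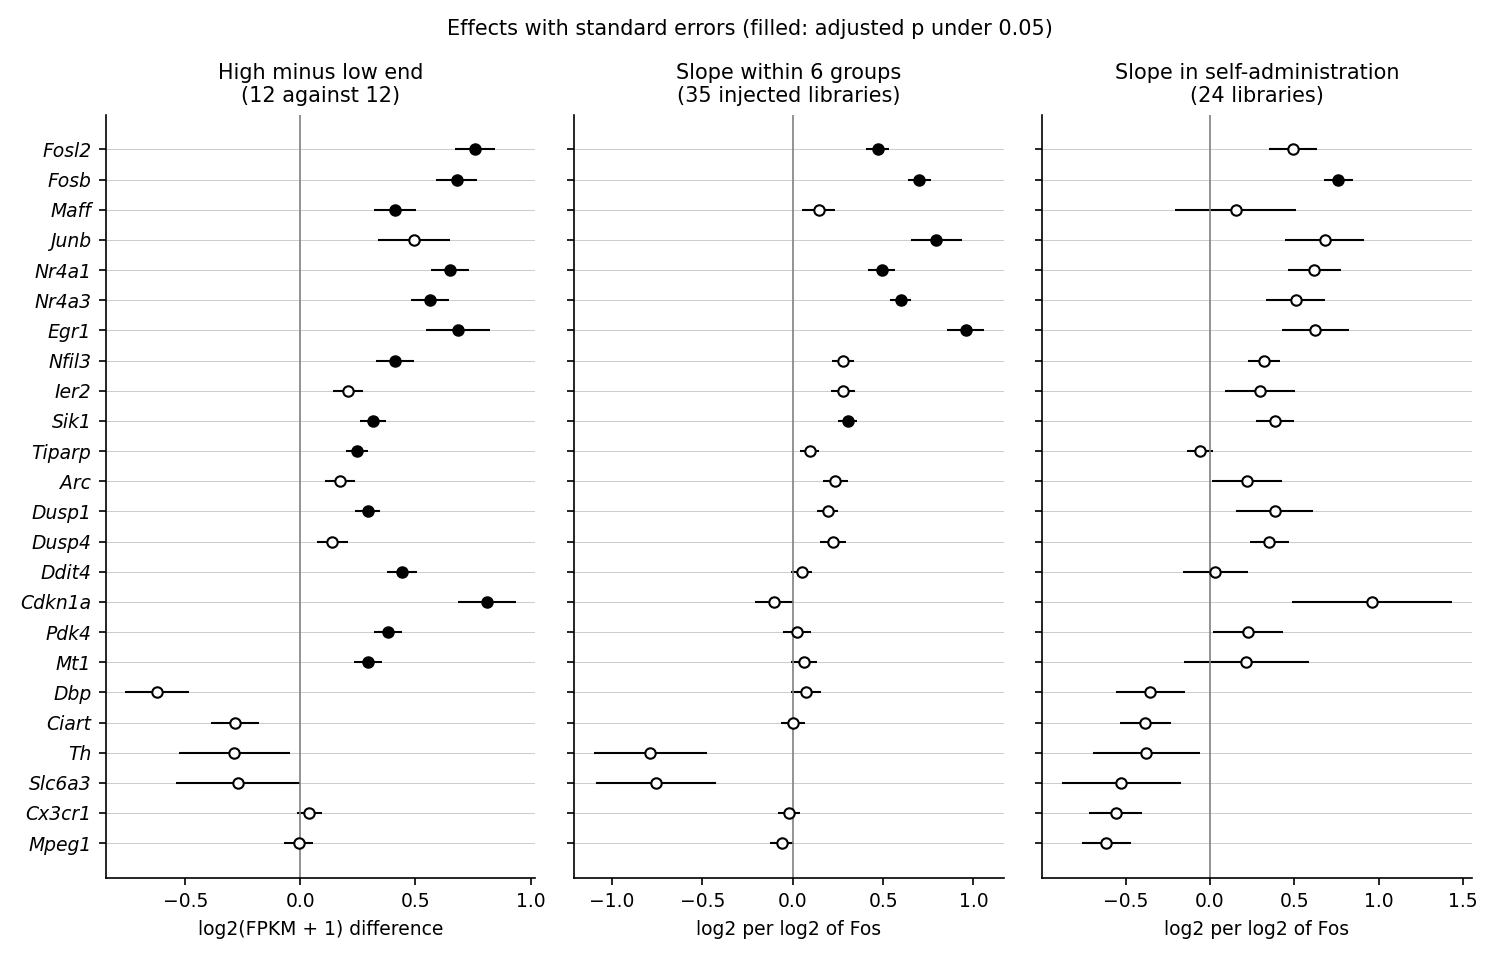
Effects with standard errors of 24 named genes: the difference between the ends (left), the slope on log2 Fos within the 6 injected groups (middle) and the slope in self-administration (right). Filled points have a limma adjusted p under 0.05; Ddit4, Cdkn1a, Pdk4 and Mt1 are filled on the left and lie near 0 in the middle, while Fosb is filled in all 3 panels.

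On the lower side of self-administration no gene passed, and 354 had an unadjusted p under 0.05. The 6 smallest were Mpeg1, Ifitm1, Ptgs1, Lyz2, Emcn and Appl2, with an adjusted p of 0.740 each. Mpeg1 and Lyz2 are genes of macrophages and microglia, and their slopes were -0.61 ± 0.15 and -0.88 ± 0.22. Mpeg1 spanned 2.79 to 7.27 FPKM after cocaine and 2.77 to 6.65 after saline, and it was under 3 FPKM in both libraries with the highest Fos and in Self-administration saline 1. All 6 microglia markers had negative slopes with a median of -0.41, 4 of them at an unadjusted p under 0.05, such as Cx3cr1 (-0.56 ± 0.15, p = 0.00128). In the injected libraries the same 6 had 1 positive slope within groups and a median of -0.05, and Mpeg1 had -0.06 ± 0.07. Endothelial markers were negative in 6 of 6 in self-administration, with a median of -0.20. The part of these cells in the slopes of the early genes was not tested.

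**Figure D4:**
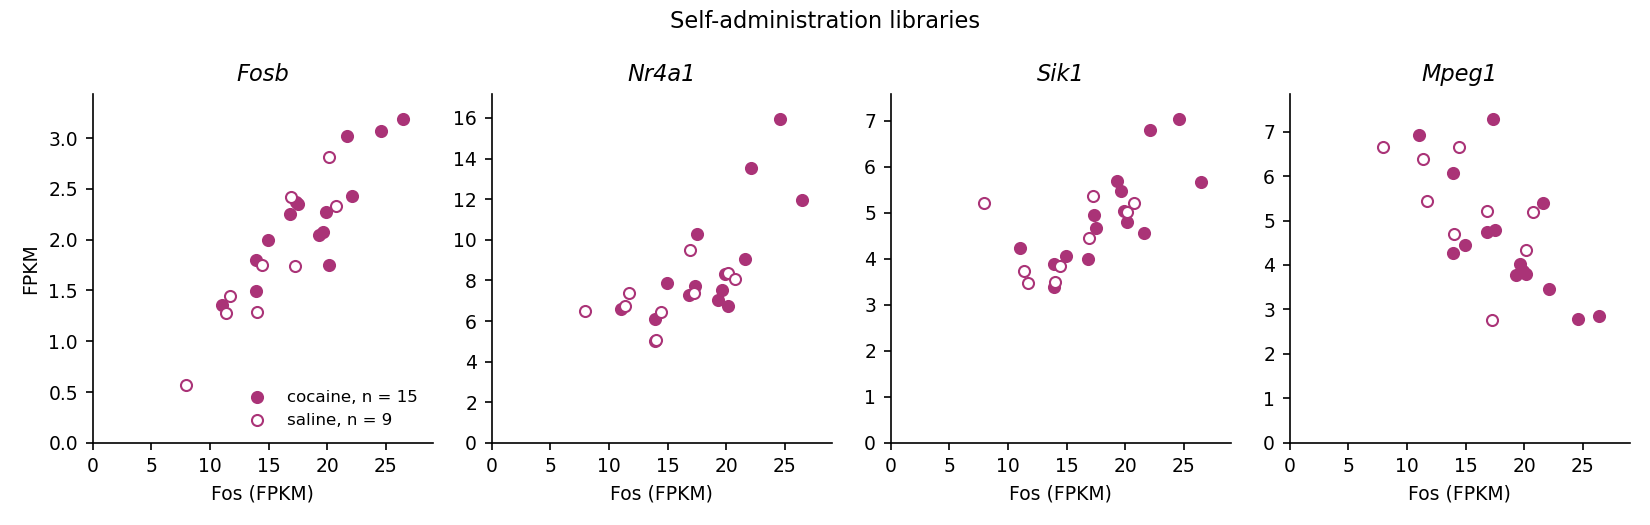
FPKM of Fosb, Nr4a1, Sik1 and Mpeg1 (vertical axes from 0) against Fos FPKM in the 24 self-administration libraries, cocaine filled and saline open. Fosb rises with Fos from 0.571 to 3.18 FPKM, and Mpeg1, which did not pass, is under 3 FPKM in the 2 libraries with the highest Fos.

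**Figure D5:**
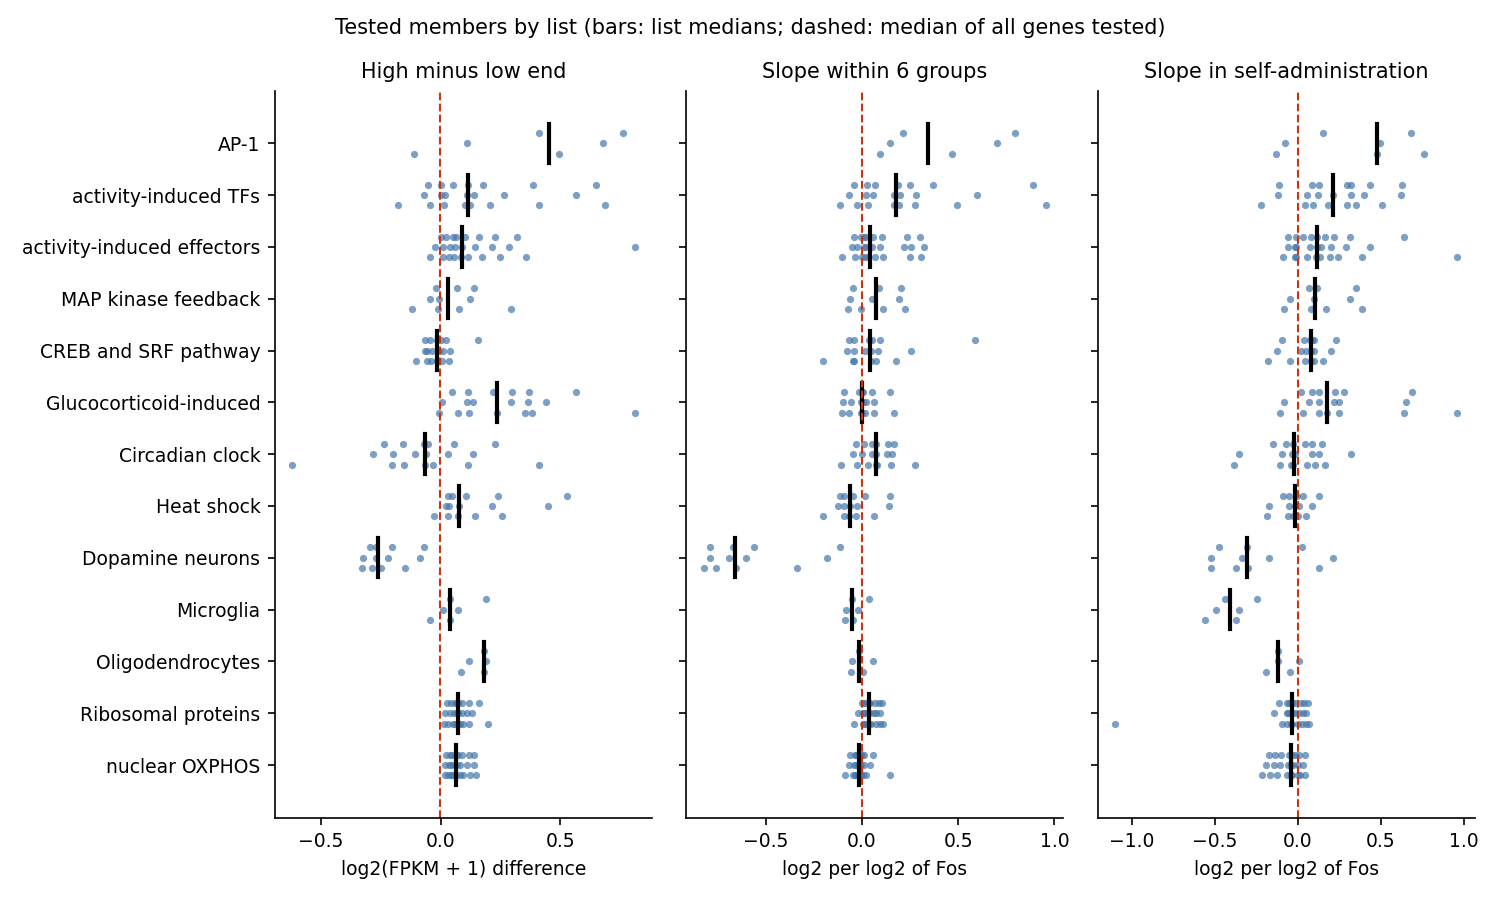
Tested members of 13 gene lists as points, with the list median as a bar and the median of all genes tested as a dashed line, for the difference between ends (left, log2) and the slopes within groups (middle) and in self-administration (right). Glucocorticoid-induced genes have medians of 0.23, 0.002 and 0.17, and dopamine neuron markers -0.26, -0.66 and -0.31.

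The count between the ends depended on the paradigms. With paradigm and treatment as terms, or with the 6 group means, 0 genes passed, although 1474 and 653 had an unadjusted p under 0.05. With paradigm and treatment as terms Nr4a1 had a difference of 0.75 (limma adjusted p = 0.0733), and Fosb had 0.64 there (adjusted p = 0.361). Each end then holds few libraries of a shared group: acute cocaine has 1 at each end, chronic cocaine 2 at each, and the other 4 groups are at one end only.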

How the data were processed

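RNA of the ventral tegmental area was sequenced in 59 libraries, and the authors deposited 1 table of FPKM by gene symbol (24346 symbols) and library. Extraction used RNeasy columns and library preparation a TruSeq kit, per the labels' protocols. Per the submitters' processing notes the tools were Bowtie and Cuffnorm and the build mm10. For versions, annotation, filters, strand and scaling the entry is: not given in the sources used here. FPKM shares the library's total among genes, so abundant transcripts can move others, and reads of overlapping or near-identical genes may be split. Read depth is unknown and no count test was run.

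Columns were matched to groups by name (0 unmatched). The members, lists and rules for named genes were chosen with earlier results of these data known. Values were taken as log2(FPKM + 1), genes averaging 1 FPKM or more across the libraries of a fit were kept, and Fos was left out of results and adjustment. limma 3.58.1 in R 4.3.3 (trend and robust, two-sided, Benjamini-Hochberg, threshold 0.05) gave the 4 fits, which were checked on simulated data. The rule named 12 genes or fewer per direction with the smallest p between the ends and at least 1.2-fold, up to 6 per direction in self-administration, members of each list with the smallest p, 8 standard early genes, the 10 highest rho with Fos, and cell type markers. Named after their values were seen were the genes called within groups, Jun, Jund, Nr4a2, Bdnf, Homer1, Creb1, Fkbp5, Zbtb16, Sgk1, Nfkbia, Errfi1, Plat, F3 and Atox1. Btg2, Snx22, Gucd1, Kank1 and Klhdc7a were also named after their values were seen. Alternatives changed the pseudocount, filter, normalization, weights, covariates and libraries. Promoters are RefSeq entries on GRCm38.p6, matched by symbol.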

Additional observations from a re-analysis of the deposited data

Results flagged for a closer look

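In 84 sets of values (12 genes by group, groups of 4 to 10 libraries), the highest or lowest library was compared with the rest by the gap to its neighbour over the whole range. Chance gives about 1 in 20 such sets, and 6 were found. Nr4a1 was highest at 9.62 FPKM in Conditioning cocaine 5, where the others had 6.19 to 7.38. It was 8.00 in Chronic saline 2 against 4.05 to 5.16, and 9.65 in Conditioning saline 1 against 7.07 to 7.66. Nr4a3 was lowest at 1.61 FPKM in Acute cocaine 2, a low-end library, against 2.15 to 2.27 in the others of its group. Dbp was 77.4 FPKM in Chronic saline 1 against 40.9 to 52.5. Th was 562 FPKM in Acute saline 0, also at the low end, against 293 to 368.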

How the results depend on the processing

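Between the ends, the count of 35 stayed within 1.5 times with a pseudocount of 0.1, no filter, quantile normalization or a slope over all 35 libraries. That slope called 30 genes (27 higher, 3 lower), of which 15 were among the 35. The pseudocount, filter and normalization settings each called 1 gene as lower. The count was 57 with library quality weights (53 higher, 4 lower) and 0 with paradigm and treatment as additive terms or 6 group means. It was 21 (19 higher, 2 lower), 8 and 1 without the acute, chronic and conditioning libraries. Leaving out 1 library gave 13 to 57. The count fell past 1.5 times without Chronic saline 0, 1, 3 or 5, Acute saline 2, Conditioning saline 0, 1, 2 or 3, or Conditioning cocaine 2, 4 or 5, and rose so without Acute cocaine 2. Direction across these settings was compared for selected genes, which left out Plat, F3, Atox1, Timp4 and others of the 35. Among the selected genes it turned for Maff (-0.072, 6 group means), Dbp (0.15 additive terms, 0.15 group means, 0.050 without conditioning) and Ciart (0.031, 0.11 and 0.14 in that order). The slope within groups, 15 genes (14 higher, 1 lower), gave 56 with quantile normalization (37 and 19), 2722 with quality weights (1374 and 1348), 30 without covariates (27 and 3), 0 in cocaine and 404 in saline libraries alone, and 940, 2 and 8 without the acute, chronic and conditioning libraries. Leaving out 1 library gave 5 to 545: 545 without Acute cocaine 2, 139 without Acute saline 4, 114 without Acute cocaine 0, 77 without Acute cocaine 4, 45 without Conditioning cocaine 1, 24 without Acute cocaine 1, 9 without Acute saline 0, Chronic saline 1 or Chronic saline 3, and 5 without Chronic saline 2 or 4. In self-administration 0 genes passed in cocaine or saline libraries alone, which hold fewer samples, and leaving out 1 library gave 1 to 2, with 2 without Self-administration saline 4. The difference of slopes gave 0 in every setting run. The cause of these shifts was not tested. No paired analysis was possible because columns count from 0 and the labels' replicates do not, so no column could be assigned to one sample. Depth is unknown, so no counting error stands beside genes near 1 FPKM such as Fosb and Egr4.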

Other observations

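Of the signalling genes called within groups, Oxtr had medians of 1.77 FPKM at the high and 1.78 at the low end, Kcnj9 18.5 and 18.0, Adcy7 5.52 and 5.38, and Sstr4 1.60 and 1.13, and none of the 4 passed between the ends. Spearman's rho with Fos over the 35 libraries was 0.13 for each of Oxtr, Kcnj9 and Adcy7 and 0.47 for Sstr4. With group means removed it was 0.58, 0.70, 0.63 and 0.71 in that order. In self-administration Oxtr had a slope of 0.41 ± 0.19 (limma p = 0.0395) and Kcnj9 -0.04 ± 0.11 (p = 0.697).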
